A study of Rattus norvegicus with 115 samples.

Results

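In sorted cells of rat mammary tumours, 9 genes of the MHC class II presentation pathway were followed: Cd74, RT1-Da, RT1-Db1, RT1-Ba, RT1-Bb, RT1-DOb, RT1-DMa, RT1-DMb and Ciita. They were chosen by symbol, and all 9 of 9 were rows of the count table, which holds 17455 genes. MHC class II molecules carry peptides from engulfed or internal proteins to the cell surface, where CD4 T cells read them. In rat the classical pairs are RT1-D (alpha chain RT1-Da, beta chain RT1-Db1) and RT1-B (RT1-Ba and RT1-Bb). Cd74 encodes the invariant chain, which escorts new class II pairs and blocks their groove. RT1-DMa and RT1-DMb form the DM pair that exchanges the last piece of the invariant chain for peptide, RT1-DOb is a chain of the DO pair that restrains DM, and Ciita is the coactivator that turns the whole set on. Macrophages, dendritic cells and B cells carry class II at all times, while epithelial cells can be induced to carry it by interferon gamma.

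Tumours had been induced in virgin Sprague Dawley rats, an outbred stock, with 1 to 3 intraperitoneal doses of 50 mg/kg of the carcinogen N-nitroso-N-methylurea (NMU) between 35 and 53 days of age. Once tumours could be felt, rats were given vehicle, anti-PD-L1 (an antibody that blocks an immune checkpoint), LY2157299, also known as galunisertib, which inhibits the TGF-beta receptor kinase TGFBR1, or both agents, called the combination here. A further cohort had untreated tumours, also induced with NMU, whose treatment the labels give as none and the deposited sample table as vehicle. The labels list sorted CD45, Ep and DN fractions, but a column of the count table names only the rat and tumour, so each column used was placed by its own counts. Columns with at least 300 CPM (a gene's count scaled to the same total in every column) of Ptprc, the gene of CD45, are called leukocyte columns, and columns with under 150 CPM of Ptprc and at least 300 CPM of Epcam are called epithelial columns, which can hold both Ep and DN samples.

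This gave 44 leukocyte columns from 31 rats, 61 epithelial columns from 32 rats, and 2 columns in neither class. The leukocyte columns numbered 12 for vehicle, 8 for anti-PD-L1, 7 for the TGFBR1 inhibitor, 8 for the combination and 9 for untreated tumours, against 12, 8, 7, 8 and 10 CD45 samples in the labels. The lowest Ptprc level among leukocyte columns was 486.2 CPM, and the highest among epithelial columns was 124.0 CPM. Between them lay a column of untreated tumour C5T1 at 165.4 CPM of Ptprc with 28486 CPM of Cd74. This C5T1 column had 1100 CPM of the T-cell gene Cd3e and 18.98 CPM of Epcam, and the labels list a CD45 sample of that tumour. The Ptprc limit leaves it out of the leukocyte values of untreated tumours. The other column outside both classes, of vehicle tumour P6T2, had 11.93 CPM of Epcam and 115407 CPM of Col1a1, a collagen gene of fibroblasts. Total counts ran from 6609198 to 29727437 in leukocyte columns and from 2353564 to 26635144 in epithelial columns. The classes carried the defining markers: Cd3e, a T-cell receptor component, had a median of 843.0 CPM in leukocyte and 2.183 CPM in epithelial columns, and Krt8, a keratin of luminal epithelium, 24.45 and 3103 CPM. The deposited sample table numbers 3 batches and does not say what a batch is. Untreated tumours were almost all in batch 1 and treated rats in batches 2 and 3, so the untreated cohort and its batch cannot be told apart, and its values are given without a test.

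Class II genes share a promoter layout, in which an X box is followed by a Y box (bound by the NF-Y factor) just upstream of the start. The table of RefSeq promoters, build GRCr8, holds 7 of the 9 members, and stretches from 125 to 26 bases before the annotated start are shown for the 6 on chromosome 20 to let their shared letters be seen. Their positions are RT1-Da chr20:4515290-4515389 (+), RT1-Db1 chr20:4560188-4560287 (-), RT1-Ba chr20:4576932-4577031 (+), RT1-Bb chr20:4604144-4604243 (-), RT1-DOb chr20:4627549-4627648 (-), RT1-DMa chr20:4712361-4712460 (-). Capitals mark the letters ACNGATG (part of the X box) and GATTGG (the core of the Y box), or their reverse complement, each searched on both strands. Each line reads 5′ to 3′ along the gene.
RT1-Da: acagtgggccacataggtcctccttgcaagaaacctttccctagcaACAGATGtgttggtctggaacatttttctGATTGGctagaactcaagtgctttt
RT1-Db1: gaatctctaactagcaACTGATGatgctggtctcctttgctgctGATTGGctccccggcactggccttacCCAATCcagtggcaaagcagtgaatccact
RT1-Ba: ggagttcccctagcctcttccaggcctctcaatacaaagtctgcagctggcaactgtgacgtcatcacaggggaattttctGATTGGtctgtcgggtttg
RT1-Bb: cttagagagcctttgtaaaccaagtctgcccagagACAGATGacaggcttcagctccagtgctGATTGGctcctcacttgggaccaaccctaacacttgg
RT1-DOb: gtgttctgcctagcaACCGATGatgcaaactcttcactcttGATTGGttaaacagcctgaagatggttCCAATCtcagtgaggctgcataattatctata
RT1-DMa: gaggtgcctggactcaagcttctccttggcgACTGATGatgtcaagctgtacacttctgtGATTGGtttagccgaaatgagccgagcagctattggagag
The Y-box letters were found in the sense direction in all 6, beginning at 50 bases before the start in RT1-Da, 81 in RT1-Db1, 44 in RT1-Ba, 62 in RT1-Bb, 84 in RT1-DOb and 65 in RT1-DMa. The X-box letters stood 26 to 29 bases ahead of them in 5 of the 6 and were not in the RT1-Ba window. Across all 33469 promoters of 300 bases in the table, 14.8% held the Y letters and 10.2% the X letters on either strand, and 1.41% held both. Both in the sense direction with their first letters 20 to 30 bases apart, a spacing set after the members had been seen, occurred in 8 promoters (0.0239%): those of RT1-Bb, RT1-DMa, RT1-DOb, RT1-Da, RT1-Db1 and the further beta chain RT1-Db2, and those of Aanat and Mtmr4. The Cd74 window held neither string. A match of letters is a description of the sequence, and no binding was measured here.

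Class II transcripts were far more abundant in leukocyte than in epithelial columns, which is described without a test because Ptprc and Epcam chose the columns. Cd74 ranged from 3148 to 71233 CPM with a median of 16678 in the 44 leukocyte columns, and from 79.95 to 13807 CPM with a median of 600.4 in the 61 epithelial columns. At its highest, in a leukocyte column of vehicle tumour P5T3, Cd74 alone took 7.123% of all counts. The alpha chain RT1-Da had medians of 4369 and 133.4 CPM in the leukocyte and epithelial columns, RT1-Db1 4766 and 219.1 CPM, and RT1-Ba ranged from 395.8 to 13327 CPM in leukocyte and from 7.1 to 2396 CPM in epithelial columns. RT1-DOb ranged from 19.14 to 346.4 and from 0 to 33.34 CPM, and Ciita had medians of 62.87 and 2.372 CPM. In 34 tumours of 26 rats with columns of both kinds, Cd74 was higher in the leukocyte columns in 32, by a median of 22.8 times, and RT1-Da, RT1-Db1 and RT1-Ba were each higher in 33. The exceptions for Cd74 were tumour P28T1 of an anti-PD-L1 rat, at 5649 CPM in the leukocyte and 13807 CPM in the epithelial column, and P17T3 of a rat on the TGFBR1 inhibitor, at 6736 and 7637 CPM. For P17T3 the labels list CD45 and DN samples but no Ep sample. Its epithelial column had 8838 CPM of Col1a1.

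**Figure D1:**
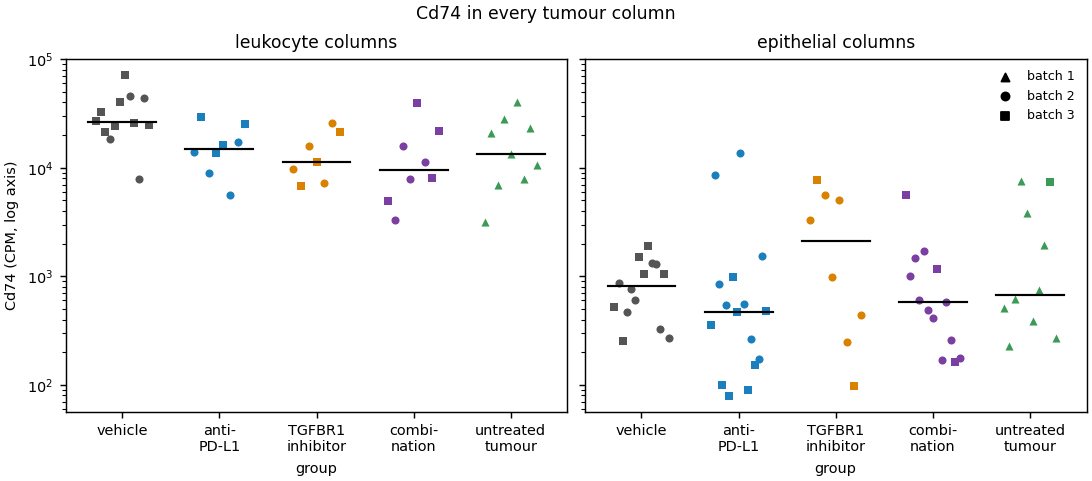
Cd74 in CPM (log axis) in each of the 44 leukocyte and 61 epithelial columns by group. Each point is 1 column, its shape gives the batch and the black line is the median. Leukocyte columns lie between 3148 and 71233 CPM, and epithelial columns spread from 79.95 to 13807 CPM.

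Set against Cd68, a macrophage gene, Cd74 had a median ratio of 49.96 (6.571 to 2111) in epithelial and 80.92 (21.74 to 332.9) in leukocyte columns. The epithelial column of untreated tumour C10T2, with 507.3 CPM of Cd74 and 0.0 CPM of Cd68, has no ratio and is left out of these values. Macrophage markers were present in epithelial columns, with a summed level of the 10 markers (Cd68, Csf1r, C1qa and 7 others) of 19.88 to 2525 CPM and a median of 171.5, against a median of 2563 CPM in leukocyte columns. The part of other cell types in the epithelial class II levels was not tested. Among the epithelial columns with the most Cd74, untreated tumour C17T4 had 7493 CPM of Cd74 with 3.55 CPM of Cd68, a macrophage sum of 77.03 CPM and 37.71 CPM of Ptprc. The anti-PD-L1 tumour P24T3 had 8525 CPM of Cd74 with 42.81 CPM of Cd68, a macrophage sum of 781.1 CPM and 14.88 CPM of Ptprc. The anti-PD-L1 tumour P28T1 had 13807 CPM of Cd74 with a macrophage sum of 607.2 CPM and 124.0 CPM of Ptprc, and P17T3 of a rat on the TGFBR1 inhibitor had 7637 CPM with 529.3 and 22.6 CPM. Untreated tumour C9T2 had 7422 CPM of Cd74 with a macrophage sum of 2033 CPM and 84.62 CPM of Ptprc. P23T1 of a combination rat had 5556 CPM of Cd74 with the highest macrophage sum, 2525 CPM, and 36.89 CPM of Ptprc. A column of P17T1, of a rat on the TGFBR1 inhibitor, had 5657 CPM of Cd74 with a macrophage sum of 549.2 CPM and 55.76 CPM of Ptprc. All of these columns but that of C17T4 had macrophage sums above the epithelial median, and C17T4 was below it. For P17T3 and P23T1 the labels give a DN sample and no Ep sample.

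Columns of 1 rat also differed in class II level. In 10 rats with over 1 leukocyte column, each from another tumour, the highest Cd74 level was 1.21 to 6.64 times the lowest. In 3 of these rats all columns were in 1 batch: untreated rat C10 had 3148 to 20913 CPM, combination rat P31 3272 to 15824 CPM and vehicle rat P5 24226 to 71233 CPM. In the other 7 the tumours were in different batches, so tumour and batch cannot be told apart. In epithelial columns, 17 tumours had over 1 column, and the highest Cd74 level was 1.02 to 8.79 times the lowest with a median of 1.68. For all of these tumours but P22T2 the labels list both a DN and an Ep sample. Their columns may thus be different sorted fractions and not repeats. The widest spread was in P30T2, whose columns had 1886 and 27.88 CPM of Col1a1. The widest epithelial spreads within a rat were 267.7 to 7422 CPM in untreated rat C9 and 353.9 to 8525 CPM in anti-PD-L1 rat P24, both between tumours in different batches, and the library of P24 in the tests below holds the lower column. In P24 the sorted fraction differed too. Beside CD45, the labels give only DN for the lower tumour, P24T2, and only Ep for P24T3. Their epithelial columns had 12977 and 157.5 CPM of Col1a1.

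Treatment was given to the rat, so columns of a rat were summed to 1 library per compartment for the tests, with batch as a covariate. Nothing in the labels ties rats to litters or cages, so the p-values measure the spread between these animals. In leukocyte libraries, class II genes were lower on average in all 3 treated groups than in vehicle rats, and none of the differences passed the test over all genes. The log2 fold change from edgeR was below 0 for 8 of 9 members in each comparison with vehicle, RT1-Bb being the exception, and the 3 comparisons share their vehicle rats. The median over the 9 members was -1.12 for anti-PD-L1, -1.54 for the TGFBR1 inhibitor and -1.01 for the combination, while the median over all 11776 genes tested was -0.00378, -0.0127 and -0.000567. No member was called by edgeR's quasi-likelihood test in any of them. Of all genes, 0% were called for anti-PD-L1, 1.47% (173 genes) for the TGFBR1 inhibitor and 0% for the combination. Without single rats the second share ran from 0% to 11.6%, the highest without vehicle rat P7. At an unadjusted p under 0.05 the counts were 1439, 2813 and 1909 genes, and DESeq2 called 0.858%, 11.2% and 2.73% of genes. In bulk RNA, fewer cells of a type and less RNA per cell cannot be told apart.

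The invariant chain gene Cd74 had 7914 CPM in the lowest of 8 vehicle rats, a median of 29806 and a highest value of 46048. The 5 rats on anti-PD-L1 had 5649, 13547, 16062, 25224 and 29534 CPM, the 5 on the TGFBR1 inhibitor 6736, 7287, 9813, 11308 and 21288 CPM, and the 6 on the combination a lowest of 4947, a median of 9628 and a highest of 39676 CPM. The groups overlapped: vehicle rat P7 lay with the treated rats, and combination rat P33 lay among the highest vehicle rats. The log2 fold change of Cd74 against vehicle was -1.17 ± 0.552 (SE) for anti-PD-L1 with an adjusted p of 0.397, -1.65 ± 0.534 for the TGFBR1 inhibitor with an adjusted p of 0.0793, and -1.18 ± 0.505 for the combination with an adjusted p of 0.254 (edgeR). For the TGFBR1 inhibitor the adjusted p of Cd74 was 0.0347 without vehicle rat P7 (edgeR) and 0.0118 by DESeq2, and over all alternatives it ran from 0.0118 to 0.563. Within batches, Cd74 differed by -1.56 in batch 2 and -0.50 in batch 3 for anti-PD-L1, by -1.28 and -1.16 for the TGFBR1 inhibitor, and by -1.83 and -0.50 for the combination, all on the log2 scale and none past the test. Rats with columns in both batches enter both of these fits, but the main fit keeps 1 batch per rat. Cd74 was lower in the column left out than in that kept for vehicle rats P6 (25592 CPM) and P8 (24881). The same held for anti-PD-L1 rats P24 (13833), P26 (8894) and P29 (17294). It was higher in the column left out for inhibitor rats P19 (15817) and P22 (25709).

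**Figure D2:**
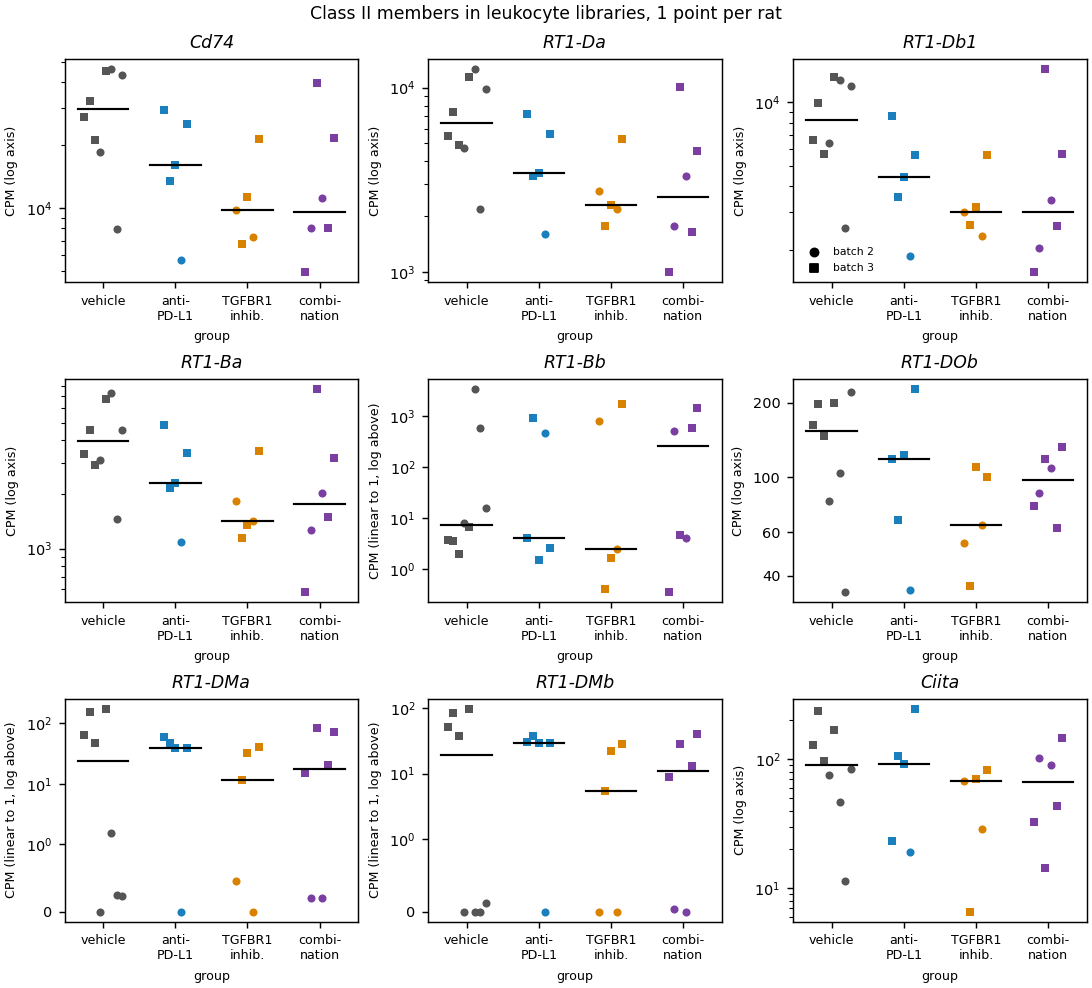
The 9 members in leukocyte libraries, in CPM, with 1 point for each of 24 rats, its shape giving the batch and a black line at the median. Axes are logarithmic, for RT1-Bb, RT1-DMa and RT1-DMb above 1 CPM only. Cd74, RT1-Da, RT1-Db1 and RT1-Ba overlap between groups with the vehicle medians highest, RT1-Bb falls into 2 separate levels in every group, and RT1-DMa and RT1-DMb lie near 0 in batch 2.

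The chains of the classical pairs had values like those of Cd74. RT1-Da, the RT1-D alpha chain, had medians of 6414 CPM in vehicle, 3465 in anti-PD-L1, 2323 in TGFBR1 inhibitor and 2551 in combination rats. Its log2 fold changes against vehicle were -1.12 ± 0.573, -1.54 ± 0.553 and -1.13 ± 0.525. RT1-Db1, the beta chain, had medians of 8240, 4405, 3002 and 3015 CPM in the same order, with fold changes of -1.23 ± 0.552, -1.58 ± 0.533 and -1.01 ± 0.508. RT1-Ba, the RT1-B alpha chain, had medians of 3948, 2309, 1427 and 1759 CPM, with fold changes of -0.97 ± 0.568, -1.38 ± 0.548 and -0.83 ± 0.522. The smallest adjusted p among these 9 values was 0.0877, for RT1-Db1 with the TGFBR1 inhibitor (edgeR). DESeq2 called all 3 genes in that comparison, at adjusted p of 0.0254, 0.0176 and 0.045.

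The DM pair was counted in only part of the study. In leukocyte columns RT1-DMa averaged 0.5428 CPM in batch 1, 0.5065 CPM in batch 2 and 76.91 CPM in batch 3, and RT1-DMb 0.1735, 0.01173 and 45.82 CPM. Within batch 3 both were present in all 19 leukocyte columns, with at least 143 and 67 counts. Of 7851 genes with a mean of at least 10 CPM in batch 3 leukocyte columns, 54 (0.688%) were under a 20th of that mean in both other batches, RT1-DMa, RT1-DMb and Tnf among them. The reverse, a mean of at least 10 CPM in batch 2 with under a 20th of it in batch 3, was found for 1 gene. Cd74 by comparison averaged 17144, 16151 and 24465 CPM in the 3 batches, and RT1-DOb 74.03, 100.1 and 132.7 CPM. How the counts of the batches were made is not given in the sources used here.

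**Figure D3:**
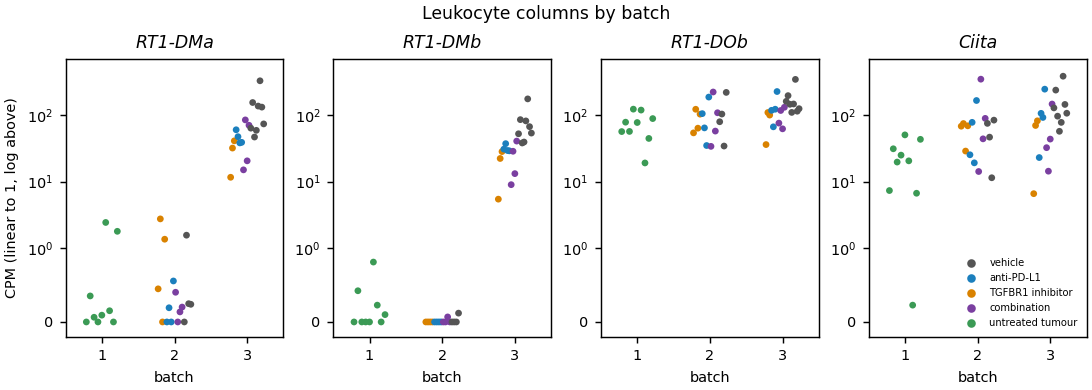
RT1-DMa, RT1-DMb, RT1-DOb and Ciita in CPM (linear to 1, logarithmic above) in each of 44 leukocyte columns by batch, coloured by group. RT1-DMa and RT1-DMb reach 330.0 and 176.2 CPM in batch 3 and at most 2.754 and 0.8113 CPM in the other batches, while RT1-DOb is present in all 3 and Ciita is lowest in batch 1.

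Within batch 3, vehicle rats held the highest DM levels. RT1-DMa had 46.99 to 174.4 CPM in 4 vehicle rats, 38.36 to 60.43 in 4 anti-PD-L1 rats, 11.65 to 41.17 in 3 rats on the TGFBR1 inhibitor and 15.07 to 85.08 in 4 combination rats. RT1-DMb had 38.22 to 98.91, 29.12 to 37.36, 5.459 to 28.38 and 9.015 to 40.83 CPM in the same order. The ranges of the TGFBR1 inhibitor and vehicle did not overlap for either gene, nor did those of anti-PD-L1 and vehicle for RT1-DMb, by narrow gaps in places. The other ranges overlapped. The share of all genes that separate in this way among so few rats was not counted, so nothing is drawn from it. Batch 3 columns of vehicle rats P6 and P8, whose libraries in the tests came from batch 2, had 132.5 and 74.04 CPM of RT1-DMa and 67.33 and 53.89 CPM of RT1-DMb. The fit of batch 3 alone includes these columns and so has 6 vehicle rats. In it the log2 fold change of RT1-DMb was -1.82 ± 0.523 for the TGFBR1 inhibitor, -1.09 ± 0.451 for anti-PD-L1 and -1.45 ± 0.459 for the combination, with adjusted p of 0.199, 0.639 and 0.304 (edgeR). That of RT1-DMa was -1.93 ± 0.62, -1.23 ± 0.535 and -1.04 ± 0.531. Over both batches, RT1-DMb with the TGFBR1 inhibitor gave the smallest adjusted p of any member, 0.0575, at -1.90 ± 0.526, and RT1-DMa gave -1.88 ± 0.70.

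RT1-DOb, of the pair that restrains DM, had 34.39 to 220.6 CPM in vehicle rats with a median of 154.0, and medians of 118.5, 63.87 and 97.68 CPM in anti-PD-L1, TGFBR1 inhibitor and combination rats. Its log2 fold changes against vehicle were -0.63 ± 0.382, -1.08 ± 0.373 and -0.67 ± 0.346, and the smallest adjusted p was 0.0937, with the TGFBR1 inhibitor (edgeR). The lowest vehicle rat, P7, was also the lowest for Cd74 and Ciita. Ciita, the coactivator, had 11.46 to 239.0 CPM in vehicle rats with a median of 90.61, and medians of 92.61, 68.4 and 66.72 CPM in the treated groups. Its log2 fold changes were -0.40 ± 0.631, -1.03 ± 0.631 and -0.58 ± 0.587, with adjusted p of at least 0.328 (edgeR). In batch 2 alone the value for Ciita was above 0 for anti-PD-L1 (0.19 ± 0.597) and for the combination (0.61 ± 0.716), so its direction was not the same in both batches. Its highest values were in columns of vehicle tumour P5T3, at 386.7 CPM, and combination tumour P31T2, at 348.9 CPM.

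**Figure D4:**
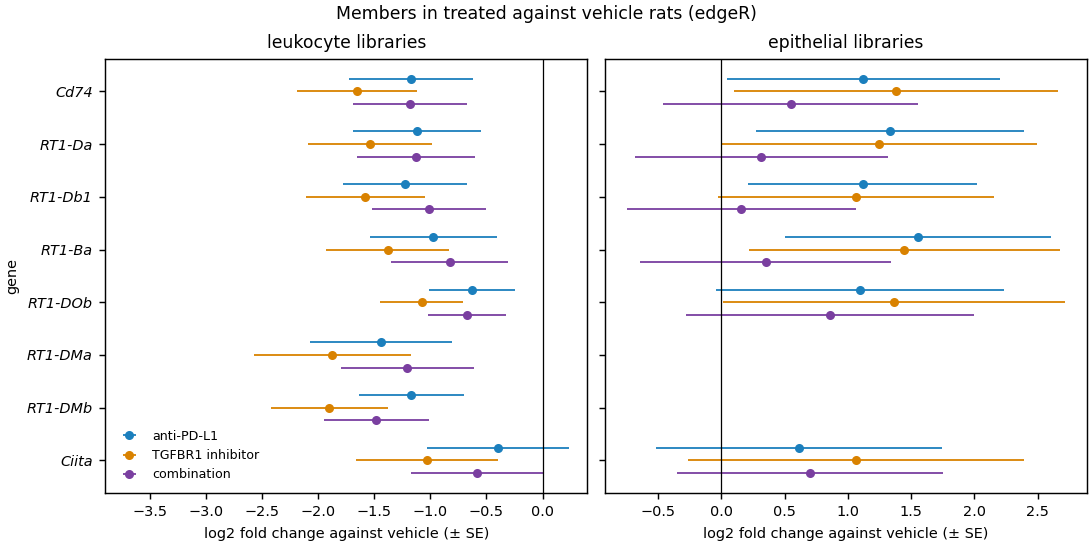
Log2 fold change against vehicle (edgeR, points) with its standard error (bars) for 8 members in leukocyte and epithelial libraries. RT1-Bb is left out because its level was split by rat, and RT1-DMa and RT1-DMb, near 0 in batch 2 of both compartments, are left out of the epithelial panel because all 4 TGFBR1 inhibitor libraries there are from batch 2. All leukocyte values shown lie below 0, from -0.40 to -1.90, and the epithelial values shown lie above 0 with standard errors of 0.905 or more.

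The 2 agents together did not differ detectably from either alone. Against anti-PD-L1, the combination gave a log2 fold change of -0.01 ± 0.53 for Cd74, with 5 of 9 members below 0. Against the TGFBR1 inhibitor it gave 0.47 ± 0.534, with 1 of 9 members below 0. The call share was 0% in both, with 167 and 181 of 11776 genes at an unadjusted p under 0.05 by edgeR and 0.00849% and 0% of genes called by DESeq2.

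Markers of the cell types that carry class II also had different levels in the groups. The summed level of 10 macrophage markers was 2316 to 24034 CPM with a median of 7084 in vehicle leukocyte libraries. It was 166.8 to 3964 with a median of 1368 for anti-PD-L1, 694.8 to 2838 with a median of 1564 for the TGFBR1 inhibitor, and 658.8 to 7169 with a median of 1587 for the combination. All 10 markers were below 0 in each comparison with vehicle and 0 of 10 were called; for Cd68 the log2 values were -1.89 ± 0.767, -2.11 ± 0.726 and -1.40 ± 0.686, and the medians over Cd68, Csf1r, C1qa and the other 7 were -2.55, -2.79 and -2.39. B-cell markers lay on the other side of 0: the 7 measured, Ms4a1 and Cd79b among them, were above 0 in all 3 comparisons, with medians of 3.90, 2.00 and 3.58 and 0 of 7 called. Their summed level was 9.29 to 58.81 CPM in vehicle rats with a median of 29.35. It was 39.93 to 1606 with a median of 51.45 for anti-PD-L1, the highest being rat P29. For the TGFBR1 inhibitor it was 61.14 to 178.6 with a median of 95.99, and for the combination 9.645 to 836.9 with a median of 88.34. The ranges of anti-PD-L1 and the combination overlapped that of vehicle, and single rats with high sums weigh on their fold changes. The range of the TGFBR1 inhibitor lay just above that of vehicle. How many genes or lists separate in this way among so few rats was not counted, so nothing is drawn from it. Of the 8 measured dendritic-cell markers, 6, 6 and 5 were above 0, with medians of 0.53, 0.66 and 0.13. T-cell markers (Cd3e, Cd3d, Cd3g and 5 others) had medians of 0.11, 0.38 and 0.27, and no marker of either list was called. Ptprc itself was 525.8 to 1021 CPM in vehicle rats against medians of 1170, 1110 and 1280 CPM in the treated groups. Epithelium markers, Epcam and Krt8 among them, were below 0 in 8 of 8 genes in each comparison (medians -0.64, -0.72 and -0.78), and stroma and endothelium markers in 4, 5 and 5 of 6 (medians -0.26, -0.72 and -1.65), with none called. No listed marker of these types was at 0 in all rats of a group, and the part of cell composition in the class II differences was not tested.

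Across 17 rats of batch 3 leukocyte libraries, Cd74 ran with the other chains: Spearman's rho was 0.973 with RT1-Da, 0.966 with RT1-Db1, 0.953 with RT1-Ba, 0.88 with RT1-DMa and 0.716 with RT1-DMb. It was 0.703 with RT1-DOb, 0.463 with Ciita and 0.387 with RT1-Bb. For the first 3 macrophage markers rho was 0.87 (Cd68), 0.674 (Csf1r) and 0.632 (C1qa), for dendritic-cell Flt3, Zbtb46 and Xcr1 it was -0.113, 0.088 and -0.037, and for the T-cell genes Cd3e, Cd3d and Cd3g -0.757, -0.659 and -0.772. B-cell Ms4a1 and Cd79b gave -0.556 and -0.522. These are descriptions across rats of all treatments, whose values within a library share 1 total.
The 10 genes most like Cd74 there, among 7883 with a mean of at least 10 CPM and leaving out members and provisional symbols, were Ogfrl1 (0.971), Ctsh (0.963, a cathepsin), Marcks (0.958), Tf (0.951, transferrin), RT1-Db2 (0.949), Dpep2 (0.949), Csf2ra (0.936, a GM-CSF receptor chain), Napsa (0.934, an aspartic protease), Snx8 (0.929) and Cfp (0.922, properdin). In epithelial libraries the batch with most rats was batch 2, also with 17, and the 10 genes differed: Grhl3 (0.887, an epithelial transcription factor), Birc3 (0.87), Ctss (0.858, the cathepsin that trims the invariant chain), Dapp1 (0.848), Rbpj (0.846), Cyba (0.838), RT1-A1 (0.831, a class I gene), Cflar (0.811), Zswim4 (0.811) and Tgif1 (0.797). In those epithelial libraries rho with Cd74 was 0.826 for Ciita, 0.667 for Ptprc and 0.664 for Cd68.

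Other genes of class II processing and of the interferon-gamma axis were also compared in leukocyte libraries. Of 20 measured accessory genes, 13, 15 and 11 were below 0 for anti-PD-L1, the TGFBR1 inhibitor and the combination against vehicle, with medians of -0.25, -0.38 and -0.07, and 0 of 20 were called in each. The 6 with the smallest p in the combination comparison were Ifi30 (-1.40 ± 0.413), the thiol reductase of the class II pathway, Rfx5 (0.66 ± 0.199), an X-box factor, Ctss (-1.73 ± 0.542), RT1-Db2 (-1.09 ± 0.511), the costimulator Cd80 (0.81 ± 0.508) and the Y-box factor Nfya (0.38 ± 0.267), with adjusted p of 0.159 or more (edgeR). Of 11 interferon-gamma axis genes, 9, 9 and 7 were above 0, with medians of 0.14, 0.36 and 0.20. The kinase Jak1 was the 1 of 11 called, and it rose with the TGFBR1 inhibitor (1.05 ± 0.254, edgeR adjusted p of 0.0478), beside 1.47% of all genes called in that comparison. No gene was called there in batch 3 alone or with limma voom, Jak1 included. Among those with the smallest p in the combination comparison were Jak1 (0.82 ± 0.244), Cxcl9 (-1.41 ± 0.625), Cxcl10 (-0.92 ± 0.501), Gbp2 (0.26 ± 0.207) and Jak2 (0.28 ± 0.324), none of them called there. In epithelial libraries no accessory or axis gene was called in any comparison.

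RT1-Bb, the beta chain of RT1-B, was split by rat. Its count was set against that of its partner RT1-Ba, as a ratio compared between columns only, since counts are not corrected for gene length. In 16 of 36 rats the ratio was 0.3126 to 3.07 in all 47 columns, with a median of 0.4705. In the other 20 rats it was at most 0.05976 in all 60 columns, with a median of 0.001493. No rat had columns on both sides of 0.1, a limit set after the values were seen, and 30 rats had more than 1 column, 28 of them columns of more than 1 class, and 11 columns in 2 batches. Leukocyte libraries of vehicle rats showed the split plainly: RT1-Bb was 2.026, 3.596, 3.701, 6.825, 8.006 and 15.6 CPM in 6 of them and 582.9 and 3347 CPM in P7 and P6, while RT1-Ba was 1452 CPM in P7 and 2911 to 7314 CPM in the others. High ratios were found in 2 of 9 vehicle rats, 4 of 7 on anti-PD-L1, 2 of 5 on the TGFBR1 inhibitor, 3 of 7 on the combination and 5 of 8 with untreated tumours. The fitted fold changes of RT1-Bb between treatments had standard errors of 2.08 to 3.47, and they are not given as treatment effects. RT1 genes have close paralogs that may share reads in these counts, and the annotation used for counting is not given in the sources used here.

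**Figure D5:**
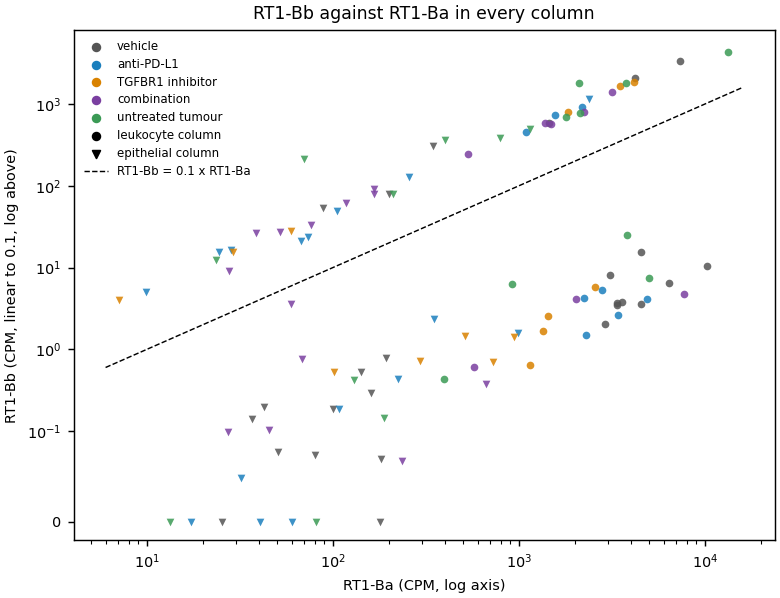
RT1-Bb against RT1-Ba in CPM in each of 44 leukocyte columns (circles) and 61 epithelial columns (triangles), coloured by group, with the RT1-Bb axis linear to 0.1 and logarithmic above. The dashed line is a ratio of 0.1: columns above it have ratios of 0.3126 to 3.07 and columns below it at most 0.05976, with all groups on both sides.

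In epithelial libraries class II levels varied widely between rats of 1 group, and no member was called. These libraries can hold Ep and DN samples, and the labels do not give them evenly. Vehicle tumours had 4 Ep and 11 DN samples, anti-PD-L1 8 and 8, the TGFBR1 inhibitor 4 and 4, and the combination 5 and 8. Fraction and treatment thus cannot be fully told apart here. Cd74 was 305.0 to 1885 CPM in 7 vehicle rats with a median of 707.2, 89.45 to 13807 CPM in 7 anti-PD-L1 rats with a median of 474.8, and 222.9 to 5556 CPM in 6 combination rats with a median of 818.0. For the 4 rats on the TGFBR1 inhibitor the levels were 323.2, 982.5, 4465 and 4999 CPM. All groups overlapped. The first of the 4 is P22, whose library comes from columns of tumour T2, while the labels give its 1 Ep sample to tumour T1. The log2 fold change of Cd74 against vehicle was 1.12 ± 1.08 for anti-PD-L1, 1.38 ± 1.28 for the TGFBR1 inhibitor and 0.55 ± 1.01 for the combination (edgeR, adjusted p of 0.975, 0.983 and 0.999). Of the 9 members, 1 was below 0 for anti-PD-L1 and for the combination (RT1-Bb) and 3 for the TGFBR1 inhibitor (RT1-Bb, RT1-DMa and RT1-DMb). Some of the signs of Cd74 changed without single rats: without anti-PD-L1 rat P28 the first was -1.15, and without combination rat P23 the third was -0.75. The epithelial library of P28 had 124.0 CPM of Ptprc, the highest of any epithelial column, with 607.2 CPM of macrophage and 711.4 CPM of dendritic-cell markers, and the part of these in its class II level was not tested. With the TGFBR1 inhibitor, 8 of 10 macrophage markers (median log2 fold change 1.49), 8 of 8 T-cell markers (0.94) and 7 of 8 dendritic-cell markers (1.03) were also above 0 in epithelial libraries, none of them called, and the macrophage sum was 169.9 to 1629 CPM against 119.0 to 1018 CPM in vehicle rats. For anti-PD-L1 all 10 macrophage markers were below 0 (median -0.95), and for the combination 5 of 10 were. Stroma and endothelium markers were below 0 in 6, 6 and 5 of 7 for anti-PD-L1, the TGFBR1 inhibitor and the combination. Their medians were -1.22, -1.65 and -1.78, with none called. The part of these cells in the epithelial differences was not tested.

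The call share in epithelial libraries was 0% for anti-PD-L1, for the TGFBR1 inhibitor and for the combination against vehicle, and 0% for the combination against anti-PD-L1 and against the TGFBR1 inhibitor, over 13369 genes. The numbers of genes at an unadjusted p under 0.05 were 548, 751, 595, 371 and 620 in that order, and DESeq2 called 0.00748%, 0.299%, 0%, 0.0374% and 0.0898%, with no member among them. Ciita had 0.7737 to 11.6 CPM in vehicle rats and up to 21.86 CPM with the TGFBR1 inhibitor, 40.31 CPM with anti-PD-L1 and 31.18 CPM with the combination, the last 2 again in P28 and P23. In epithelial columns of untreated tumours, Ciita had 0 counts in 5 of 9 batch 1 columns, among them C17T4 with 7493 CPM of Cd74 and C7T1 with 1929 CPM, and the leukocyte column of C3T1 had 0.2278 CPM of Ciita with 7955 CPM of Cd74. Only 3 of 32 epithelial columns of batch 2 and 0 of 20 of batch 3 had 0 counts of Ciita. In leukocyte columns the Ciita median was 20.59, 68.85 and 92.61 CPM in batches 1, 2 and 3. In untreated tumours Cd74 had a median of 13504 CPM in 9 leukocyte columns and 678.3 CPM in 10 epithelial columns, inside the range of the treated cohort.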

How the data were processed

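RNA of sorted fractions, amplified from under 10 ng per the labels' protocols, had been sequenced, and the authors deposited raw counts per gene symbol in 1 table, per the file headers and values. The submitters' processing notes name STAR and FastQC, and rn6 as the build. Which tool, annotation and strand setting made the counts is not given in the sources used here. Of 108 columns 1 was not used, since its name is missing. Columns were tied to rat and treatment by name, 13 of them to 1 sample, and batch was taken from the deposited sample table. CPM are counts scaled to one common total per column, without further normalization.

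Columns of a rat and compartment were summed to 1 library, and for rats with 2 batches the one with more counts was kept. Libraries of the 4 treated groups (24 per compartment) were fitted with edgeR 4.0.16 in R 4.3.3 (TMM, filterByExpr, robust quasi-likelihood F test, batch as covariate), with Benjamini-Hochberg adjustment over all genes and a threshold of 0.05. A value after ± is an SE unless stated, computed as the size of the log2 fold change divided by the root of the F statistic. The fit was tested on simulated data with the same spread for all genes and no batch effect, which does not show its power or error rate in these data. Alternatives were RLE scaling, no filter, DESeq2 1.42.0, no batch term, each batch alone, limma 3.58.1 voom over columns with rat as random block, stricter column limits (Ptprc at 600 and 50 CPM), only the groups compared, and leaving out each rat.

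The members, lists and tests were chosen with earlier results of these data known. All members are named, list genes by the smallest p in the leukocyte combination comparison, up to 6 per list, markers by their first 3 (values of 2 list genes that these rules name are not reported here), and likeness by Spearman correlation of log2 CPM with a prior count of 2.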

Additional observations from a re-analysis of the deposited data

Results flagged for a closer look

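Levels of the 9 members in CPM were checked within each group of 4 to 10 rats for a sample far from the others (Dixon's ratio), in 70 gene and group combinations, and 29 were past the limit. For normally spread values chance alone gives about 1 in 20. The CPM were not put on a log scale and most groups mix batches, so the rate expected here can be higher and was not measured. The members are not independent of each other. Of these, 21 came from the epithelial libraries of P28, P23 and P6.

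Anti-PD-L1 rat P28 stood above the other 6 epithelial libraries of its group for Cd74 (13807 against at most 946.9 CPM), RT1-Da (3269 against 255.8), RT1-Db1 (3353 against 865.3), RT1-Ba (2396 against 222.8), RT1-Bb (1144 against 79.8), RT1-DOb (33.34 against 2.442) and Ciita (40.31 against 3.625). Combination rat P23 stood above the other 5 for Cd74 (5556 against 1168 CPM), RT1-Da (1320 against 284.7), RT1-Db1 (1517 against 616.1), RT1-Ba (665.8 against 235.5), RT1-DOb (23.73 against 2.814), Ciita (31.18 against 5.179), RT1-DMa (8.82 against 2.68) and RT1-DMb (8.82 against 1.273). Both rats had the lowest leukocyte Cd74 of their groups, and a link between the compartments was not tested. In P28 both libraries were of tumour T1. In P23 the epithelial library was of tumour T1, a DN sample by the labels, and the leukocyte library of tumour T2. Vehicle rat P6 stood above the other 6 for RT1-Da (666.5 against 266.9 CPM), RT1-Db1 (918.5 against 376.6), RT1-Ba (347.8 against 171.0), RT1-Bb (306.4 against 61.56), RT1-DMa (5.801 against 2.47) and Ciita (11.6 against 5.037). The epithelial libraries of P23 and P6 are of batch 3. In batch 2 libraries of combination rats RT1-DMa and RT1-DMb were at most 0.0723 and 0.1422 CPM. In those of vehicle rats both were 0.0 CPM, so rat and batch are mixed in the flags of these 2 genes.

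RT1-Bb also stood apart in 3 rats with the high ratio to RT1-Ba: the epithelial libraries of P22 on the TGFBR1 inhibitor (20.42 CPM) and of P31 on the combination (64.77 CPM), and the leukocyte library of vehicle rat P6 (3347 CPM). In leukocyte libraries combination rat P33 was high for RT1-Db1 (14346 CPM) and RT1-Ba (7702 CPM), and P22 on the TGFBR1 inhibitor for RT1-Da (5271 CPM) and RT1-Db1 (5636 CPM). The leukocyte library of P28 had 0.0 CPM of RT1-DMb against 29.12 CPM or more in the other 4 anti-PD-L1 rats, and it was the one of the group from batch 2.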

How the results depend on the processing

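Shares of tested genes called are given here. With the TGFBR1 inhibitor in leukocytes, the 1.47% called became 0% with no filter, in batch 2 alone, in batch 3 alone, with limma voom, with stricter column limits and with only the 2 groups compared, 11.2% with DESeq2, and 0% to 11.6% without single rats (11.6% without vehicle rat P7, 2.95% without P13, 2.4% without P39, 0.366% without P17 on the inhibitor, and 0% without vehicle rats P4, P5, P6, P8 or P14 or inhibitor rats P19, P21 or P22). DESeq2 called 7 members there, and without P7 edgeR called Cd74, RT1-Db1, RT1-DOb and RT1-DMb, and without P39 RT1-DMb. The other leukocyte shares were 0.858% (DESeq2) and 0.136% (voom) for anti-PD-L1, 2.73% (DESeq2), 2.7% (voom) and 0% to 0.0424% without single rats (0.0424% without P33) for the combination, and 0.00849% (DESeq2) for the combination against anti-PD-L1. In epithelium DESeq2 called 0.00748% for anti-PD-L1, 0.299% for the TGFBR1 inhibitor, and 0.0374% and 0.0898% for the combination against anti-PD-L1 and the TGFBR1 inhibitor. The cause was not tested.

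Against vehicle, no leukocyte value of the 8 members other than RT1-Bb changed sign when any single rat was left out. Under the other settings 1 of 71 did in each comparison, all in batch 2 alone: Ciita for anti-PD-L1 (0.19) and the combination (0.61), and RT1-DMa, near 0 counts there, for the TGFBR1 inhibitor (0.72). Leukocyte Cd74 for the combination against anti-PD-L1 turned to 0.0054 with RLE scaling and with DESeq2, 4e-04 with stricter limits, 0.13 with 2 groups, and -0.69 to 0.27 without single rats. Against the TGFBR1 inhibitor it turned to -0.56 in batch 2 alone, -0.22 with voom, and -0.14 to 0.78 without single rats. Epithelial Cd74 for anti-PD-L1 turned to -1.46 in batch 3 alone, -0.25 with voom, -1.15 with stricter limits, and -1.15 to 1.504 without single rats. For the combination against vehicle it turned to -0.54 in batch 2 alone, -0.35 with voom, and -0.75 to 0.92 without single rats. For the combination against anti-PD-L1 it turned to 2.53 in batch 3 alone, 1.49 with stricter limits, 0.14 with 2 groups, and -1.56 to 1.49 without single rats. No paired analysis was possible because the replicate numbers only count samples within a group and each rat had 1 treatment. Low counts limit RT1-DMa and RT1-DMb in batches 1 and 2 and Ciita in epithelium.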
